A study of Homo sapiens with 24 samples.

Results

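The genes described here encode mitochondrial ribosomal proteins, chosen by name as the protein-coding genes of the 72 h table whose symbol begins with MRPL or MRPS and a digit, and followed by the same Ensembl gene in the 48 h table. They are 78 of 19836 genes at 72 h, 49 named MRPL and 29 named MRPS, and all 78 are among the 61541 genes at 48 h. By their place in the particle, 51 belong to the large subunit and 26 to the small subunit. MRPS18A and MRPS30 are large-subunit proteins despite their names. MRPS36, now known as a component of the 2-oxoglutarate dehydrogenase complex, was kept apart from both subunits but is counted in all totals over the members.

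Cells of U2932, a line grown from a diffuse large B-cell lymphoma and labelled as wild type with bone marrow as its source, were profiled by RNA-seq after reagents directed at the MYC gene. Controls received PBS only, with 6 libraries at 48 h and 5 at 72 h. PNA2 is a gamma-modified PNA, a DNA mimic whose bases hang on a backbone built like that of a peptide, and was added to cells in multi-well plates at a labelled 8 mM, a unit that is doubtful, with 4 libraries at 48 h and 5 at 72 h. An siRNA against MYC, at 500 nM, was delivered by electroporation in 4 libraries at 48 h, and no electroporated control was used here, so the siRNA and the electroporation cannot be told apart. The cell line entries of these 4 libraries end in other digits than U2932, while their treatment text names U2932. The extraction text of all libraries names 48 h alone, against the 72 h in the titles and time entries, which were followed. Nothing says that replicates were separate cultures, so p-values measure the spread between these libraries, which may be technical.

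Mitochondria carry their own ribosome, which translates the few messages of the mitochondrial genome into membrane subunits of the respiratory chain and ATP synthase. Its rRNAs are transcribed inside the organelle, while every one of its proteins is made from a nuclear gene in the cytosol and imported. Some of these proteins descend from bacterial ribosomal proteins, and others were added in the mitochondrial lineage. MYC is a transcription factor known to raise ribosome production and mitochondrial biogenesis, and B-cell lymphomas often depend on it.

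The 48 h values are deposited adjusted counts, rescaled here per library (scaled values), and summed to 11.12 M to 16.17 M per library as deposited. The 72 h values are deposited normalized counts, from 8.22 M to 13.69 M reads per library. The 48 h libraries fell into batches that the labels do not name, seen as tied values of low genes: batch A held controls 1, 2 and 4, PNA2 1 and 2 and all siRNA libraries, and batch B held control 3, 2 controls without a number and PNA2 3 and 4. MYC itself was lower after siRNA, with scaled values of 3588 to 4184 against 5453 to 7648 in controls (log2 change -0.81, limma adjusted p = 0.000317). After PNA2 its change was 0.24 at 48 h (adjusted p = 0.0958) and -0.18 at 72 h (adjusted p = 0.794), so neither passed the limma test. The B-cell genes PAX5 and CD79A were high in every group (medians of 6686 or more), and of the 4 T and NK genes CD3D and CD2 were listed at 0 in all 24 libraries and NKG7 reached 1.701. CD3E reached 3.26 in controls and 6.63 in PNA2 at 48 h, and ran from 0 to 18.8 in controls and from 7.0 to 23.4 after PNA2 at 72 h. The myeloid genes CD14, LYZ and CSF1R stayed at or below 36.4, and CSF1R ran from 0 to 2.87 in controls and from 4.50 to 9.56 after PNA2 at 72 h. The erythroid genes HBB and HBA1 stayed at or below 6.01, COL1A1 reached 141 in 1 PNA2 library at 48 h, and EPCAM ran from 80.9 to 251 over all libraries. The part of these genes' source cells in the results was not tested.

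The promoters of the members are shown first, because members that changed in different directions can be compared by them. RefSeq promoters (GRCh38.p14) were at hand for 69 of the 78 members, and the 250 bases before each start were searched on both strands for 3 motifs. CACGTG, the E-box that MYC with MAX can bind, was found in 8 of 69 members (11.6%), against 7.73% of all genes with a promoter and 11.5% of the genes tested at 72 h. CCGGAAG, a core of ETS-family sites including those of GABPA, a regulator of nuclear genes for mitochondrial proteins, was found in 25 of 69 (36.2%), against 10.2% of all genes and 19.8% of the genes tested at 72 h. The palindromic site of NRF1, another such regulator, was found in 1 of 69 members (1.45%) and in 2.47% of the genes tested. A match describes letters and is no evidence that a factor binds. Whole windows are given for MRPS18A (chr6:43687792-43688041, minus strand), which rose after PNA2 at 72 h, for MRPS31 (chr13:40771191-40771440, minus strand), which rose after siRNA, and for MRPL11 (chr11:66438849-66439098, minus strand), which fell after siRNA. They run 5′ to 3′ to the base before the start, with capitals marking a motif.
MRPS18A: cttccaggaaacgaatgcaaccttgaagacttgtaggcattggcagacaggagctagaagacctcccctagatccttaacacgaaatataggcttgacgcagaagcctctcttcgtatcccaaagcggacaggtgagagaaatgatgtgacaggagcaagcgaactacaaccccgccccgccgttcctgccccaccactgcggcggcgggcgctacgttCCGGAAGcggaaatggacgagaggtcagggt
MRPS31: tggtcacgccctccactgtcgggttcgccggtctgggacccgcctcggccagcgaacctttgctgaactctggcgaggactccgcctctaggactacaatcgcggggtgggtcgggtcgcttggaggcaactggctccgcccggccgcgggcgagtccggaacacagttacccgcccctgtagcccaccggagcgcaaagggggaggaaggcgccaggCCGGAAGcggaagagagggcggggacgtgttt
MRPL11: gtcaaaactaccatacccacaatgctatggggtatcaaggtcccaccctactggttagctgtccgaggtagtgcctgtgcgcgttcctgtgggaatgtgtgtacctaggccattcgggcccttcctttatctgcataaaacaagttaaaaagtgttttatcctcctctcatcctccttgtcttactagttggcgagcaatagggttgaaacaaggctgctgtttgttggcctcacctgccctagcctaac
MRPS18A has CCGGAAG from base -31 to -25 and MRPS31 from -32 to -26, counted back from the start, and none of the 3 motifs is in the MRPL11 window. Short stretches around the match, with 10 bases on each side where the window holds them, follow for 4 further members named below, all on the plus strand. MRPS12 (chr19:38930929-38930953) has CCGGAAG from -15 to -9 of its second RefSeq start. MRPS2 (chr9:135499899-135499924, second start), MRPL37 (chr1:54199987-54200012) and MRPL45 (chr17:38297025-38297050) have CACGTG from -56, -170 and -133.
MRPS12: cggatagcgcCCGGAAGaggctaga
MRPS2: acggccaggtCACGTGactggggagc
MRPL37: cgcttcacctCACGTGaggattttcc
MRPL45: ctcccgcgagCACGTGcgcgtcctcg
Among members with a promoter, CACGTG was in 2 of the 13 that fell after siRNA (15.4%) and in 3 of the 21 that rose after PNA2 at 72 h (14.3%). CCGGAAG was in 3 of 13 (23.1%) and 9 of 21 (42.9%) of the same sets.

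Summed over all members, their share of the values in a library was small. It was 0.519% ± 0.024 (SD, n = 6) in controls at 48 h, 0.490% ± 0.012 (n = 4) after PNA2 and 0.494% ± 0.010 (n = 4) after siRNA. At 72 h it was 0.488% ± 0.015 (n = 5) in controls and 0.528% ± 0.043 (n = 5) after PNA2. Per kilobase of median transcript, MRPS21, a small-subunit protein with a bacterial homologue, stood highest in controls at both times, with 4486 ± 352 scaled value per kilobase at 48 h (n = 6) and 4285 ± 215 deposited value per kilobase at 72 h (n = 5). MRPL51, a mitochondria-specific large-subunit protein, came next with 3353 ± 283 and 2197 ± 213. MRPL49, the next at 48 h with 3108 ± 212, lay within the spread of MRPL51. MRPL1, a protein of a mobile stalk, was last at 72 h with 72.2 ± 17.8.

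**Figure D1:**
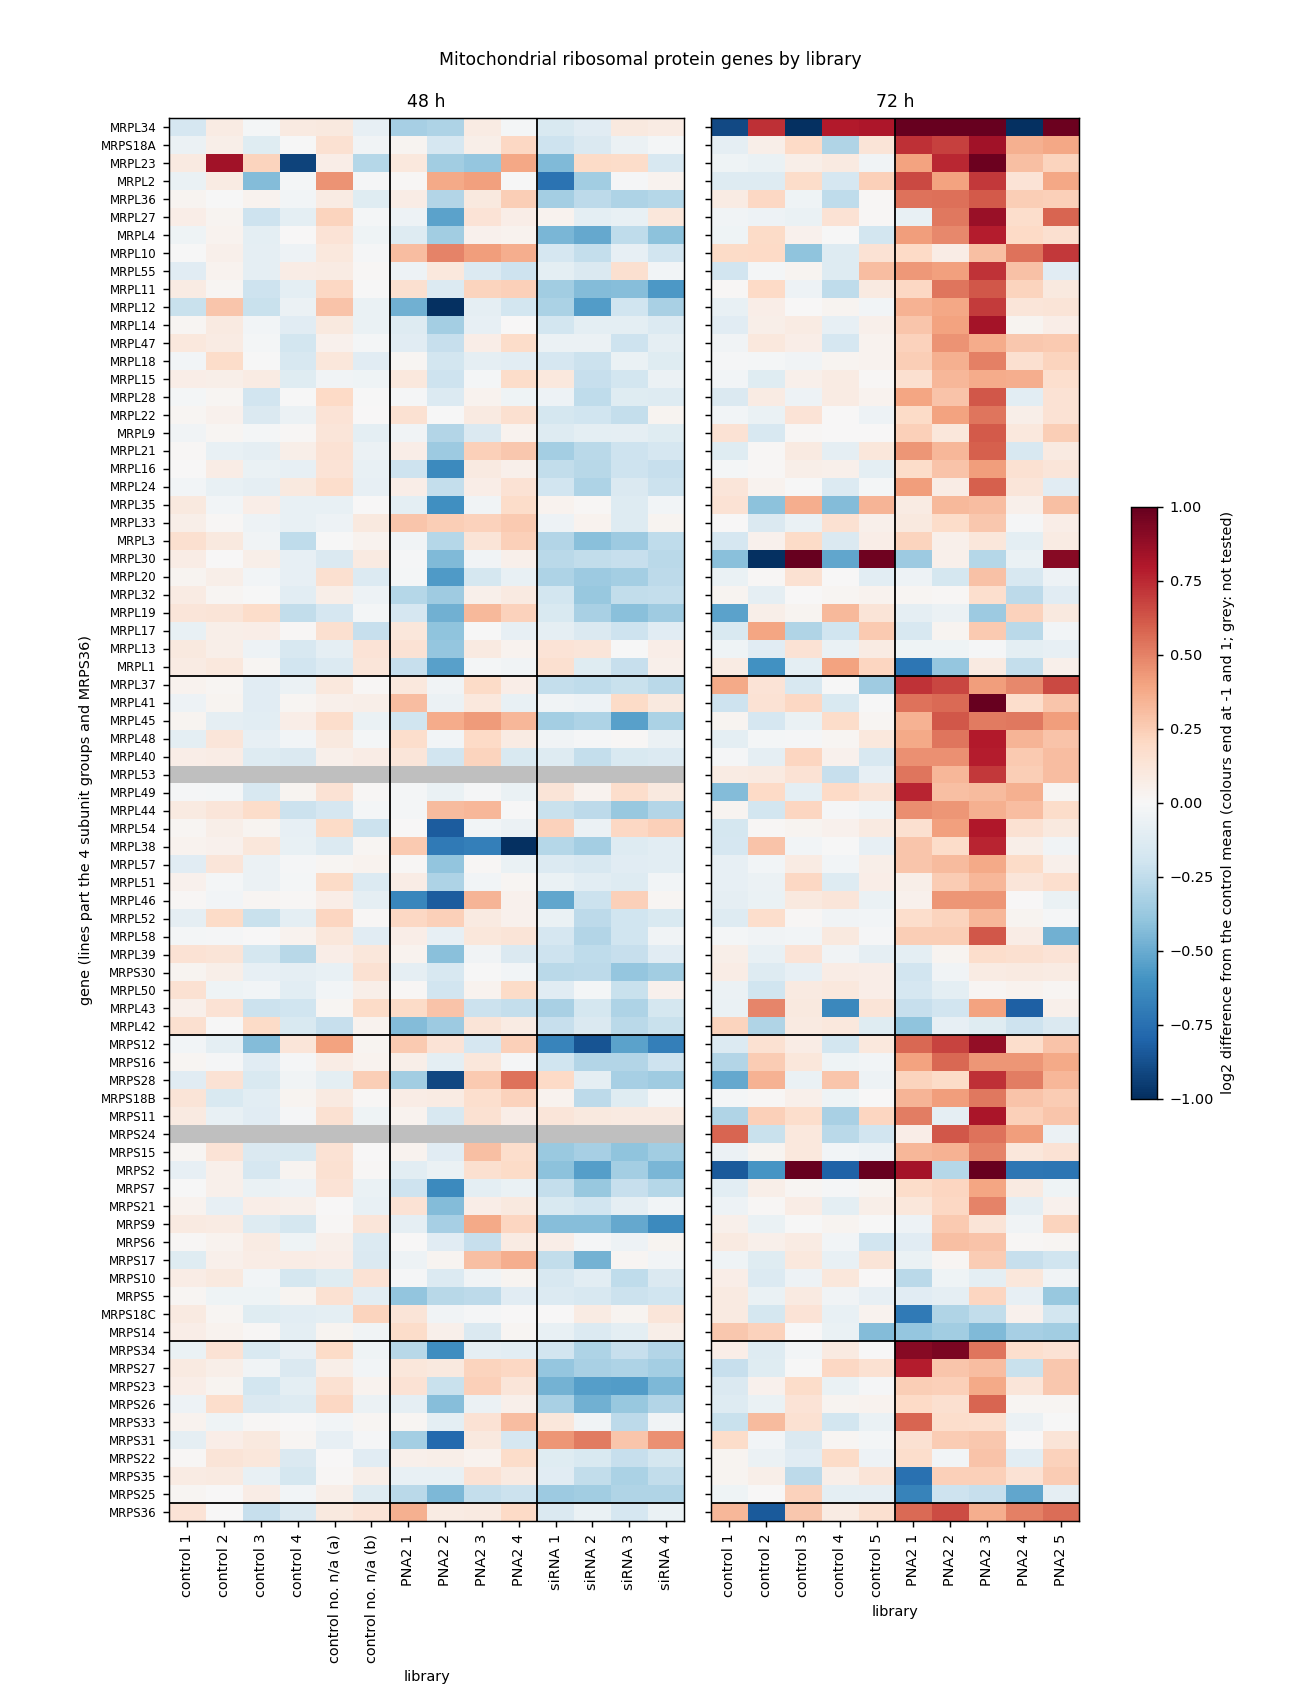
Heat map of log2 differences from the control mean for each member (rows, grouped by subunit and kind) in each library (columns), at 48 h from the controls of the same batch and at 72 h from all controls; n/a (a) and (b) are the controls without a number. The siRNA columns are mostly blue, with 8 to 17 of 76 members above the control mean per library, and the 72 h PNA2 columns mostly red, with 55 to 70 of 78 above it.

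After siRNA the members were mostly below the controls at 48 h, by small amounts. Of 76 tested, 13 fell and 1 rose by limma (17.1% and 1.32%), beside a background over all genes tested of 8.21% lower and 9.34% higher. The median log2 change was -0.146 over the members and -0.00189 over all genes, and 62 of 76 members lay below 0. In bulk RNA, less RNA per cell and fewer cells that express a gene cannot be told apart. This direction is relative to other genes: without rescaling the libraries, the median of all genes moved to 0.219 and that of the members to 0.0759, and no member was called lower by limma (1 at an unadjusted p below 0.05). The siRNA values of 32 members lay wholly below the batch A controls and those of 2 wholly above, against 20.4% and 20.1% of all genes. By subunit, 9 of 25 small-subunit members tested fell (36%) and 4 of 50 large-subunit members did (8%), beside 8.21% of all genes. By calls, then, the large subunit lay near the background, but its median log2 change was -0.138, with 41 of 50 members below 0. That of the small subunit was -0.158, with 20 of 25 below 0.

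MRPS12, the counterpart of the bacterial decoding-centre protein in which streptomycin resistance mutations arise, changed most (GENCODE 29, chr19:38930548-38933162, plus strand). Its scaled values were 312, 296 and 346 in batch A controls, 210, 375 and 290 in batch B controls, and 200.9, 174, 218 and 197 after siRNA. All 4 siRNA libraries lay below all batch A controls, and 1 batch B control lay among them. The log2 change was -0.72 (SE 0.15, limma adjusted p = 0.00546), or 0.608 times the control level. About 16.3% of its exon bases are shared with SARS2 on the opposite strand, and whether strand was used in counting is not given in the sources used here. MRPS12 stood at 21.7 per M of the control total at 48 h and 76.5 at 72 h, so its 48 h values may rest on part of its reads.

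MRPS23, a mitochondria-specific small-subunit protein, had scaled values of 1057, 1028 and 941 in batch A controls and 727, 688.5, 682.5 and 736 after siRNA. The groups did not overlap, and the log2 change was -0.46 (SE 0.095, limma adjusted p = 0.0046). MRPS2, with the E-box shown above, gave 1603, 1755 and 1733 against 1277, 1160, 1343 and 1237, again with no overlap in the batch (-0.39, SE 0.082, limma adjusted p = 0.00577). MRPL11, which sits at the base of the stalk where translation factors bind, gave 1222, 1172 and 1077 against 908, 856, 858 and 777 (-0.40, SE 0.097, limma adjusted p = 0.0112). MRPL4, a protein of the large subunit's exit tunnel, fell by 0.35 on the log2 scale (limma adjusted p = 0.0108), and MRPS27, which has pentatricopeptide repeats, by 0.32 (limma adjusted p = 0.00449). With MRPS25 below and MRPS31, these calls held when each library was left out in turn.

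The 6 other decreases were smaller or less stable: MRPS9 (-0.40), MRPS26 (-0.32), MRPS15 (-0.31), MRPS30 (-0.29), MRPS16 (-0.23) and MRPL37 (-0.23). Each passed limma with all libraries and lost the call in at least 1 of 10 fits without a library. The count of 13 dropped to 8 without control 1, to 7 without control 2, and to 8 without siRNA 2 or siRNA 3. Over all genes the count that fell dropped as well, from 1155 to 666, 533, 691 and 830 in the same fits. Within batch A alone, 15 members fell and 1 rose, and without the batch term 6 fell. Of all 14075 genes, 1185 fell and 1192 rose within batch A, and 705 fell without the batch term.

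MRPS31, a mitochondria-specific small-subunit protein, was the member that rose after siRNA. Its scaled values were 524, 584 and 563 in batch A controls, 635, 562 and 590 in batch B controls, and 755, 799, 676 and 763 after siRNA. All siRNA libraries lay above all 6 controls, with a log2 change of 0.53 (SE 0.12, limma adjusted p = 0.00908). After PNA2 at 48 h the values were 440 and 325 in batch A and 638 and 528 in batch B, on either side of the controls (-0.30, limma adjusted p = 0.0773). Without the batch term the siRNA change was 0.38 and did not pass limma (adjusted p = 0.083).

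**Figure D2:**
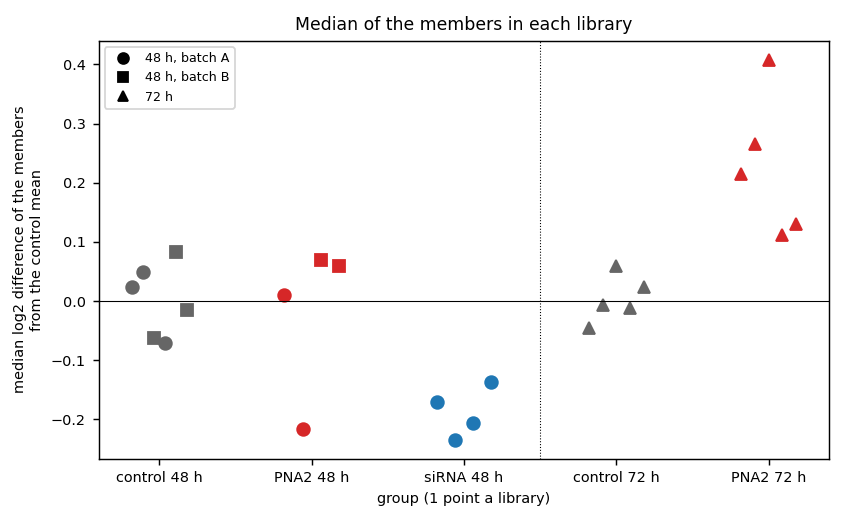
Median log2 difference of the members from the control mean in each library (points; at 48 h circles are batch A and squares batch B, at 72 h triangles), by group. The 4 siRNA libraries lie from -0.234 to -0.136 and the 5 PNA2 libraries at 72 h from 0.112 to 0.408, while PNA2 2 at 48 h, at -0.216, stands apart from the other 48 h PNA2 libraries.

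After PNA2 at 48 h the members showed no common shift. Of 76 tested, 2 rose and 2 fell by limma (2.63% each), below the background of 8.15% higher and 8.63% lower over all genes, and the median log2 change was -0.0215. The PNA2 values of 3 members lay wholly above the controls of the same batch and those of 3 wholly below, against 7.1% and 7.03% of all genes. The 48 h comparisons share their controls with those of siRNA. The library PNA2 2 stood apart, with 61 of 76 members below the batch A controls and a median of -0.216, while PNA2 1, 3 and 4 had medians of 0.0107, 0.0688 and 0.0586. Within batch A, which holds PNA2 1 and 2, 1 member rose and 10 fell, and within batch B 1 rose and limma called none lower (2 at an unadjusted p below 0.05). Over all 14075 genes tested, 884 rose and 1016 fell within batch A, and 434 rose and 533 fell within batch B. The count of 2 that fell was 6 without PNA2 1, 5 without control 3 and 4 without PNA2 3. Over all genes the count that fell went from 1215 to 1661, 1092 and 945 in the same fits.

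MRPL10 rose most at this time; it forms the stalk that carries copies of MRPL12 and recruits translation factors (chr17:47823272-47831534, minus strand). Its scaled values in batch A were 933, 967 and 901 in controls and 1154 and 1318 after PNA2, and in batch B 802, 916.5 and 847 in controls and 1141 and 1096 after PNA2. All 4 PNA2 libraries lay above all 6 controls (log2 change 0.40, SE 0.061, limma adjusted p = 0.000934). The call held in 10 fits without a library and 10 other alternatives, within each batch too, with adjusted p from 0.000504 to 0.0333. At 72 h the values were 960, 968, 635, 770 and 929 in controls and 967, 884, 1034, 1223 and 1374 after PNA2; the groups overlapped and the change of 0.36 did not pass limma (adjusted p = 0.0913).

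MRPL33, a small large-subunit protein, also rose at 48 h: 388, 375 and 354 in batch A controls against 450 and 443, and 339, 339 and 376 in batch B controls against 411 and 421.5. The groups did not overlap (0.25, limma adjusted p = 0.019), and the change of 0.26 within batch A did not pass limma alone (adjusted p = 0.086). MRPS5, a small-subunit protein, fell by 0.26 (limma adjusted p = 0.012), with 1634, 1572 and 1642 against 1232 and 1333 in batch A and 1465, 1678 and 1408 against 1264 and 1396 in batch B. MRPL12, the factor-recruiting protein carried by MRPL10, had a change of -0.45 that did not pass limma (adjusted p = 0.057). It stood at 24.6 per M of the control total at 48 h and 119 at 72 h, so its 48 h values may rest on part of its reads. Its scaled values were 313, 443 and 350 in batch A controls against 261.5 and 176 after PNA2, and 272, 389 and 305 in batch B controls against 299 and 280. The groups were apart in batch A and overlapped in batch B, with changes of -0.76 (limma adjusted p = 0.0296) and -0.14 (limma adjusted p = 0.654), and without PNA2 2 the change was -0.27 (limma adjusted p = 0.161).

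Directly between the treatments at 48 h, 16 of 76 members were higher after PNA2 than after siRNA and 2 were lower by limma, beside backgrounds of 11.6% and 12.4%. Their shares were 21.1% and 2.63%. In batch A the values of 20 members lay wholly above those after siRNA and of 8 wholly below, against 22.2% and 21.2% of all genes. MRPS12 differed by 0.83 (SE 0.16, limma adjusted p = 0.0019), MRPL10 by 0.57 (limma adjusted p = 9.07e-05), MRPS23 by 0.53 (limma adjusted p = 0.0016) and MRPS27 by 0.48 (limma adjusted p = 0.000226). MRPS31 was lower after PNA2 by 0.82 (log2 difference -0.82, SE 0.13, limma adjusted p = 0.000466), and its values, 325 to 638 against 676 to 799, did not overlap. MRPL54, the other lower member, rests on PNA2 2: the difference of -0.46 became -0.17 without it (limma adjusted p = 0.236). Without PNA2 2 the count of members higher after PNA2 was 30, and that over all genes went from 1631 to 1887.

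In the deposited values at 72 h, PNA2 gave the clearest common shift. Of 78 members tested, 24 rose and 2 fell by limma (30.8% and 2.56%), beside a background of 12.1% higher and 11.7% lower over all 11985 genes tested. The median log2 change was 0.251 over the members and -0.00541 over all genes, and 63 of 78 members lay above 0. Each PNA2 library had a median above 0: 0.215, 0.266, 0.408, 0.112 and 0.131 in PNA2 1 to 5, so PNA2 3 stood highest. The size of this shift is relative to the scaling. Deposited totals ran from 11.10 M to 11.26 M in controls and from 11.69 M to 12.65 M after PNA2. As a share of these totals, the members made up 0.472% to 0.507% in controls. PNA2 4 and 5, at 0.487% and 0.498%, lay within that range, and PNA2 1 to 3, at 0.519%, 0.538% and 0.596%, lay above it. With TMM scaling the members' median was 0.236. For 20 members all PNA2 values lay above all controls, against 10% of all genes, and for no member did all lie below, against 9.18%. In the large subunit 18 of 51 rose (35.3%), 10 of 31 with a bacterial homologue (32.3%) and 8 of 20 mitochondria-specific (40%). In the small subunit 6 of 26 rose (23.1%).

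The largest increase that passed was that of MRPS18A, the large-subunit paralog of a bacterial small-subunit protein. Its deposited values were 487, 541, 597, 422 and 566 in controls and 861, 833, 931, 665.5 and 678 after PNA2. The groups did not overlap, and the log2 change was 0.60 (SE 0.12, limma adjusted p = 0.00586), or 1.51 times the control level. Its paralog MRPS18B, of the small subunit, gave 1223, 1248, 1286, 1204 and 1247 against 1567, 1656, 1789, 1515 and 1483, with no overlap and a narrow spread (0.36, SE 0.066, limma adjusted p = 0.00335). The other paralog, MRPS18C, gave 368, 306, 381, 328 and 354 against 211, 280.5, 292, 357 and 305, so the groups overlapped and the change of -0.28 did not pass limma (adjusted p = 0.139). Whether the 3 paralogs differ in their change was not tested. None of them passed limma at 48 h after PNA2, where their changes were 0.03, 0.14 and 0.02 (adjusted p = 0.807, 0.221 and 0.878).

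MRPL37 and MRPL45 are mitochondria-specific large-subunit proteins, the latter at the tunnel exit, where it anchors the ribosome to the inner membrane. MRPL37 had deposited values of 1732, 1469, 1194, 1330 and 1045 in controls and 2201, 2124, 1784, 1862 and 2108 after PNA2. MRPL45 had 492, 430, 461, 549 and 488 in controls and 615, 741.5, 694, 696 and 645 after PNA2. In both genes all PNA2 libraries lay above all controls, with log2 changes of 0.59 (SE 0.12, limma adjusted p = 0.0067) and 0.49 (SE 0.085, limma adjusted p = 0.00288).

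MRPS12, the member that fell most after siRNA, gave 772, 943, 893, 748 and 914 in controls at 72 h and 1269, 1357, 1564, 958 and 1039 after PNA2. The lowest PNA2 library lay just above the highest control, and the log2 change was 0.52 (SE 0.13, limma adjusted p = 0.0155). MRPL23, a protein at the exit of the tunnel, gave 486, 480, 522, 533 and 489 against 662, 846, 988, 618 and 587, also without overlap (0.53, SE 0.13, limma adjusted p = 0.0153). MRPS16, an early-binding small-subunit protein, gave 310, 454, 410, 368 and 372.5 against 503, 565, 515, 515.5 and 494, without overlap (0.45, SE 0.10, limma adjusted p = 0.00937).

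**Figure D3:**
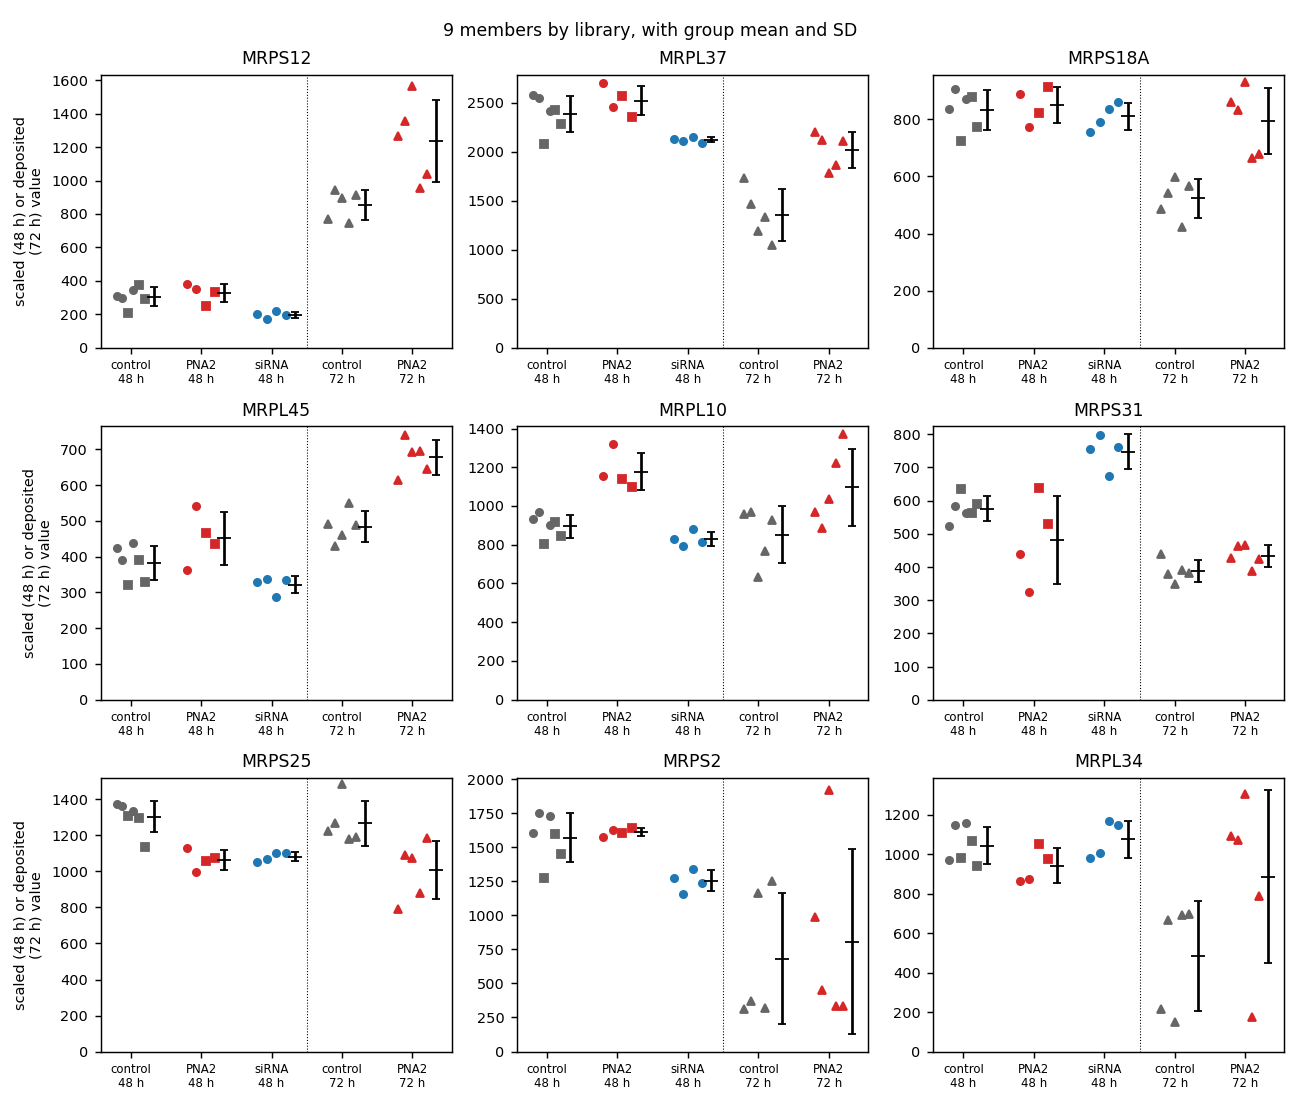
Values of 9 members in each library (48 h scaled values, 72 h deposited values; circles batch A, squares batch B, triangles 72 h), with group mean and SD (bars). MRPS12, MRPL37, MRPS18A and MRPL45 stand above the controls in all 5 PNA2 libraries at 72 h, MRPL10 does so at 48 h, MRPS31 is high after siRNA, MRPS25 is low after both reagents at 48 h, and MRPS2 and MRPL34 jump between levels within the 72 h groups.

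Of the 26 members called at 72 h, 13 kept the call in every fit without a library and in every other alternative. They are MRPL23, MRPL36, MRPL37, MRPL40, MRPL44, MRPL45, MRPL47, MRPL48, MRPL53, MRPS12, MRPS16, MRPS18A and MRPS18B, with changes from 0.32 (MRPL47) to 0.60 (MRPS18A). MRPL44, which belongs to the ribonuclease III family, rose by 0.35 (limma adjusted p = 0.0167), and MRPL36, a small zinc-binding protein, by 0.44 (limma adjusted p = 0.0155). The other 11 increases lost the call in at least 1 fit without a library; among them were MRPS34 (0.54), MRPL41 (0.52), MRPL2 (0.46), MRPL4 (0.41) and MRPL12 (0.34). MRPS34, which supports small-subunit stability, was carried by some libraries: 2441, 2485 and 1875 in PNA2 1 to 3, against 1461 and 1433 in PNA2 4 and 5 and 1187 to 1382 in controls. The count of 24 was 14 without PNA2 2 and 15 without control 1, and 28 and 23 with DESeq2 and edgeR on the reads. Over all 11985 genes the count that rose moved as well, from 1448 to 1065, 1086, 1702 and 1395 in the same fits.

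MRPS25 and MRPS14, both small-subunit proteins, were the members that fell at 72 h. MRPS25 gave 1224, 1268, 1483, 1178 and 1190 in controls and 794, 1094, 1075, 883 and 1187 after PNA2, with PNA2 5 inside the control range (-0.34, SE 0.11, limma adjusted p = 0.0482). MRPS14 gave 528, 514, 438, 418 and 323 against 334.5, 344, 322, 348 and 344, so that PNA2 was even and the lowest control lay among its values (-0.37, SE 0.12, limma adjusted p = 0.049). Both calls were at the threshold and each was lost in 9 of 10 fits without a library, and over all alternatives the change of MRPS25 ran from -0.41 to -0.26 (adjusted p up to 0.111) and that of MRPS14 from -0.48 to -0.30 (adjusted p up to 0.116).

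MRPS25 was the one member called lower in all 3 comparisons with controls. At 48 h its scaled values were 1373, 1365 and 1335 in batch A controls and 1309, 1296 and 1138 in batch B controls. After PNA2 they were 1128, 995 and, in batch B, 1057 and 1074, and after siRNA 1055, 1069, 1102 and 1104. All 8 treated libraries lay below all 6 controls, with log2 changes of -0.29 (SE 0.060, limma adjusted p = 0.00535) after PNA2 and -0.30 (SE 0.067, limma adjusted p = 0.00743) after siRNA. These share the controls and are not independent of each other. Without rescaling both were smaller, -0.09 and -0.08, and neither passed limma (adjusted p = 0.606 and 0.715). About 22% of its exon bases are shared with NR2C2 on the opposite strand.

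The siRNA comparison at 48 h and the PNA2 comparison at 72 h share no library. Of the 13 members that fell after siRNA, 6 rose after PNA2 at 72 h (46.2%): MRPL37, MRPL4, MRPS12, MRPS15, MRPS16 and MRPS23. They are 26.1% of the 23 members that rose at 72 h, out of 76 tested at both times. Over all genes tested at both times, 174 of the 1051 that fell after siRNA rose at 72 h (16.6%), or 12.4% of the 1408 that rose. As many of the 1051, 174 (16.6%), fell at 72 h. Whether the 6 members exceed what the 2 common shifts alone would give was not tested. Of the 6, MRPS12 alone held in both comparisons when single libraries were left out. The 2 members that rose after PNA2 at 48 h were not called at 72 h, and of the 2 that fell, 1 (MRPS25) fell at 72 h. Over all genes tested at both times, 34.2% of those that rose at 48 h rose at 72 h, and 32.3% of those that fell did so again. Sets of 2 members are too small to set against these shares.

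**Figure D4:**
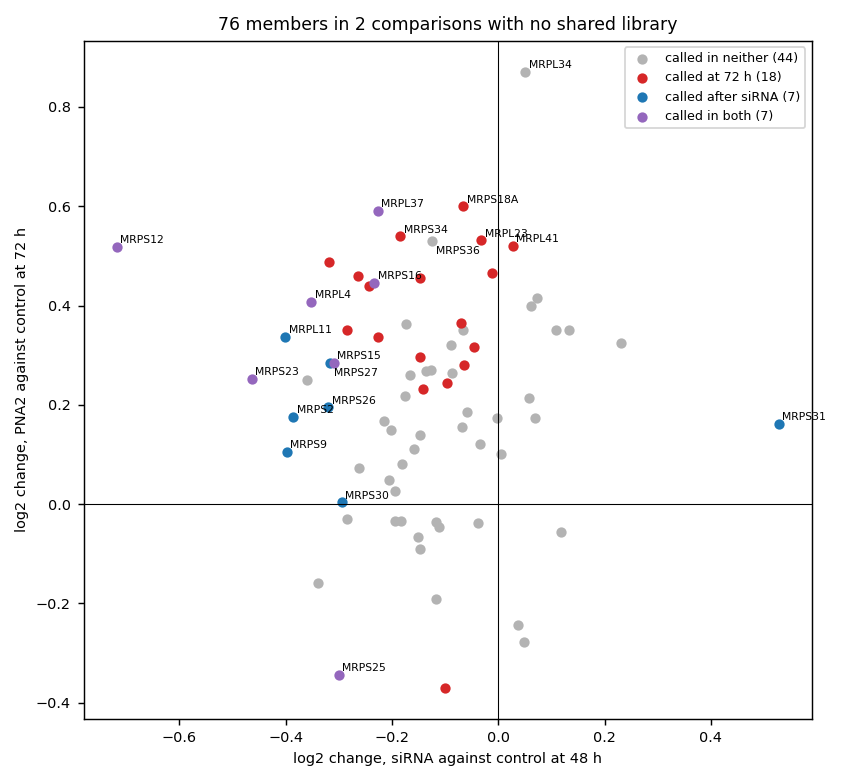
Log2 change of 76 members after siRNA at 48 h (horizontal) and after PNA2 at 72 h (vertical), coloured by the calls. Members called in both number 7, of which 6 lie at upper left (lower after siRNA, higher after PNA2 at 72 h) and MRPS25 at lower left.

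The 72 h libraries of one group differed widely in a few members. The within-group SD of MRPL34, on the log2 scale, was 1.14, above 99.5% of genes with a mean of 100 or more, that of MRPS2 was 1.06 (99.4%) and that of MRPL30 0.787 (98.5%), against a median of 0.178 over the members. MRPL34 gave 214, 665, 147, 694 and 699 in controls and 1093, 1074, 1305, 173 and 789 after PNA2. Its change of 0.87 was the largest of all members at 72 h and did not pass limma (adjusted p = 0.306). Controls 1 and 3 and PNA2 4 lay far below the other libraries. MRPS2 gave 310, 369, 1166, 317 and 1250 in controls and 989.5, 455, 1917, 337 and 335 after PNA2, so both groups held libraries near 300 and above 900 (0.18, limma adjusted p = 0.841). MRPL30 gave 238.5, 144, 689, 222 and 625.2 against 247, 330, 261, 305 and 599. At 48 h the same genes were even: MRPS2 ranged from 1277 to 1755 and MRPL34 from 939 to 1157 over the 6 controls.

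Other genes of the mitochondrial translation system, listed by role, were read beside the members. Of 5 subunits with other names, 2 fell after PNA2 at 48 h, PTCD3 (-0.25) and GADD45GIP1 (-0.29), and the list median was -0.162 after PNA2 at 48 h, -0.167 after siRNA and 0.123 after PNA2 at 72 h. At 72 h PTCD3, a pentatricopeptide protein of the small subunit, fell by 0.39 (limma adjusted p = 0.00662) and AURKAIP1 rose by 0.45 (limma adjusted p = 0.00902). PTCD3 ran from 1091 to 1353 in controls and from 882 to 1036 after PNA2 at 72 h, without overlap. Of 26 assembly factors, 6 fell after PNA2 at 48 h (23.1%, beside 8.63% of all genes; list median -0.116) and 5 fell after siRNA (19.2%, beside 8.21%; list median -0.188). They include the GTPase MTG1 by 0.50 and 0.55, the rRNA methyltransferase MRM3 by 0.34 in each, and the pseudouridine synthase RPUSD4 by 0.28 and 0.37. At 72 h 5 rose and 1 fell (19.2% and 3.85%, beside 12.1% and 11.7%), among them the helicase DDX28 at 0.44 and the protease subunit SPG7 at -0.48, and the list median was 0.0405. Of 17 translation factors, 3 fell after siRNA (17.6%, beside 8.21%; list median -0.175), among them LRPPRC, which stabilises mitochondrial messages, by 0.37. OXA1L, which inserts the products into the inner membrane, rose after PNA2 at both times, by 0.23 (limma adjusted p = 0.0108) and 0.37 (limma adjusted p = 0.00716). The median of the translation factors was -0.0821 after PNA2 at 48 h, where 1 rose and 1 fell, and -0.0883 at 72 h, where OXA1L was the 1 that rose and 11 of 17 lay below 0.

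Both mitochondrial rRNAs rose after PNA2 at 48 h, while the protein members did not move together. MT-RNR1, the small-subunit rRNA, ran from 2966 to 5768 in controls and from 8762 to 12540 after PNA2 (log2 change 1.15, limma adjusted p = 0.000308). MT-RNR2, the large-subunit rRNA, ran from 12730 to 34260 and from 49580 to 95840 (1.63, limma adjusted p = 0.000723). The 72 h table holds protein-coding genes, so the rRNAs were not analysed there. Kits for total RNA and for mRNA are both named in the labels and not tied to libraries, and their part in the rRNA level was not tested.

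The proteins of the cytosolic ribosome are given side by side. Of 84 tested at 48 h, 68 rose and 2 fell after PNA2 (median 0.442), and 1 rose and 70 fell after siRNA (median -0.425). At 72 h 76 of 85 rose (median 0.593). The mitochondrial members thus had the same sign of median at 72 h and after siRNA, at smaller size. In the scaled values they showed no common shift after PNA2 at 48 h (-0.0215). Their difference from the cytosolic set was not tested.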

How the data were processed

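RNA-seq values of 24 libraries were read from the deposited tables, with groups taken from the titles. Per the submitters' processing notes, reads were processed on GRCh38 with HTSeq 0.11.0, SAMtools 1.7, HISAT2 2.2.1, DESeq2 and Trimmomatic (order not given); the strand setting is not given in the sources used here. The 48 h values, a score of no fixed range, are counts that the authors adjusted per gene and batch, as deposited, and were not divided by depth. The 72 h values are a normalized signal, deposited by the authors after division of each library's counts by its size factor; undoing the division returned whole reads (to within 0.01) for 100% of values. At 48 h values below 0, present in 5099 genes, were set to 0 and divided by a TMM library scale (edgeR 4.0.16). A limma 3.58.1 model with a trend was fitted in R 4.3.3 to log2 of the value plus 1, with group and batch at 48 h and group alone at 72 h, so fold changes of low genes are understated. The batch term and rescaling were chosen because of what the values show. Genes reaching a value of 10 in 4 (48 h) or 5 (72 h) libraries were tested, which kept 76 members at 48 h (without MRPL53 and MRPS24) and 78 at 72 h. P-values are two-sided and adjusted by Benjamini-Hochberg across every gene tested, and 0.05 was the threshold. The fit was tested on simulated data. Alternatives were another pseudocount (10), no filter, other scalings, no batch term, single batches, 2 groups alone, a replicate block, leaving out each library, and DESeq2 1.42.0 and edgeR on 72 h reads.

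The members and lists were chosen with earlier results of these data known. The rule for naming took, of called members with a mean of 100 or more in a group, the 8 that rose most and the 8 that fell most among those with groups apart, a fixed set by role, the 5 highest and 5 lowest per length, and members called in opposite directions, 42 in all; other members named were chosen after their values were seen. Positions and exon overlaps came from GENCODE 29, and 29 members share exon bases with a gene on the opposite strand. Promoters were not matched for MRPS28, MRPL13, MRPL23, MRPL10, MRPS36, MRPL35, MRPL15, MRPL2 and MRPL21. For 34 members GENCODE names pseudogenes, 75 in all, so their counts are uncertain where reads match both.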

Additional observations from a re-analysis of the deposited data

Results flagged for a closer look

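Of the 78 members, 54 were examined for single libraries that stand apart. In groups of 4 to 6 libraries, 14 of 270 member and group pairs (5.19%) had a library far from the rest of its group, and chance alone gives about 1 in 20. At 48 h the low ones were the second control without a number in MRPL17 (436.2, others 524.6 to 574.1) and in MRPS25 (1138, others 1296 to 1373). PNA2 2 was low in MRPL54 (454.9, others 768.9 to 814.4) and in MRPS34 (1812, others 2276 to 2305), and PNA2 3 was low in MRPS22 (941.1, others 1041 to 1055). PNA2 1 was high in MRPL18 (624.8, others 534 to 541.6), in MRPS18C (457.8, others 403.9 to 408.2) and in MRPL53 (0.8889, others 0 to 0.03828), the last at a level near 0. After siRNA, replicate 3 was low in MRPL45 (286, others 329.5 to 336.6) and replicate 2 in MRPL54 (780.9, others 938.8 to 958.3). At 72 h PNA2 3 was high in MRPL20 (1235, others 895.6 to 973.5) and MRPS26 (996.2, others 674.2 to 767.2), control 2 was low in MRPL32 (486.5, others 520.6 to 530.1), and control 4 was high in MRPL58 (475.5, others 434.4 to 440.2).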

How the results depend on the processing

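Of the counts of members called, 96 alternative values were within 1.5 times of the reported one and 50 were not. The balance of calls turned in places: after siRNA it went from 1 higher and 13 lower to 1 and 0 without rescaling, where the members' median turned from -0.146 to 0.0759 (54 of 76 above 0), and after PNA2 at 48 h it ran from 3 and 0 without rescaling to 1 and 10 within batch A. For single named members, 2899 alternative results stayed on the same side of the limma threshold, 43 gained a call and 216 lost one. The cause was not tested for any of these. After PNA2 at 48 h, the 2 higher members became 1 with the 2 groups alone, within batch A or within batch B, and the 2 lower became 0 without rescaling (limma also gave 0 at an unadjusted p below 0.05), 1 with the 2 groups alone, 10 in batch A and 0 in batch B (2 unadjusted). After siRNA, the 1 higher became 0 without the batch term (1 unadjusted), and the 13 lower became 6 without it, 0 without rescaling (1 unadjusted) and 27 with the 2 groups alone. Over all genes the 1315 higher became 509 without the batch term, and the 1155 lower became 705, 74 and 2194. The members' counts thus moved in the same direction as those of all genes. Between PNA2 and siRNA, the 16 higher became 5 without rescaling, and the 2 lower became 1 without the batch term, filter or rescaling and with batches aligned on their controls. Over all genes the 1631 higher became 700, and the 1746 lower became 1319, 1524, 1085 and 1637. At 72 h the 2 lower became 0 without the filter (2 unadjusted, by limma) and 1 with quantile normalization, while over all genes 1401 became 1282 and 1350.

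With single libraries left out, the counts ran from 2 to 3 higher and 2 to 6 lower (PNA2 at 48 h), 7 to 17 lower with 1 higher (siRNA), 12 to 30 higher and 1 to 2 lower (PNA2 against siRNA), and 14 to 30 higher and 0 to 1 lower (72 h, with 2 to 4 unadjusted where none was called by limma). Counts over all genes ran from 900 to 1661 lower (PNA2 at 48 h) and 533 to 1216 lower (siRNA) in these fits. They ran from 1251 to 1887 higher (PNA2 against siRNA) and 1065 to 1662 higher (72 h).

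Samples with the same replicate number correlated between -0.07 and 0.11 in their deviations, so the numbers do not pair them. With the replicate block, PNA2 at 48 h gave 1 higher, siRNA 0 higher (1 unadjusted, by limma) and 6 lower, PNA2 against siRNA 9 higher and 1 lower, and 72 h 1 lower. Over all genes these were 464 higher, 554 higher and 462 lower, 932 higher and 898 lower, and 1390 lower. Fewer samples enter this fit at 48 h.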

Other observations

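The level of some members differed strongly between the tables, which the authors normalized separately, so this is a description and no test. As a share of all control values, 12 of 78 members stood at under 0.5 times their 72 h level at 48 h, while the median ratio over the members was 1.09. MRPL53 was at 0.0216 per M of the control total at 48 h and 30.3 at 72 h, MRPS24 at 0.438 and 43.0, MRPL38 at 3.32 and 65.1, MRPL46 at 5.50 and 35.7, and MRPL12 at 24.6 and 119. Of these 12, 8 share exon bases with a gene annotated on the same strand, against 8 of the other 66; MRPL53 does so with CCDC142, MRPS24 with the read-through gene URGCP-MRPS24, and the others among those named with unnamed protein-coding models. On either strand the sharing was 11 of 12 against 30 of 66. How the counters of the tables treated reads that fall on overlapping genes was not tested. The 12 also include MRPL23, MRPL2, MRPS28, MRPS17, MRPS12, MRPS18B and MRPS6, so a 48 h value of these genes may rest on part of their reads.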
